A study of Mus musculus with 56 samples.

Results

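The comparison set the small RNA libraries of 4 livers of postnatal stages P12, P17, P21 and P28, against those of 4 neonatal livers, 2 of P1 and 2 of P8. These 8 livers were taken by their stage labels from 42 small RNA libraries, in a series of 56 samples. All 8 mice were wild-type on the 129Sv/J background, and the P12 to P28 stages span the usual time of weaning. The neonatal stages have 2 mice each, and P12, P17, P21 and P28 have 1 mouse each, so a single stage has no replicate error after P8. The labels do not give sex or litter. The series was made to follow microRNAs of mouse liver during development and after removal of miR-122, the microRNA that makes up most of the small RNA of hepatocytes. A supplementary table of the study heads these postnatal columns in weeks and places P12 with P17, and P21 with P28, at a common age, and the stages are used here as the sample labels give them. Levels are RPM, the read number of a microRNA scaled to the total of all microRNA reads other than miR-122, so that a change in miR-122 itself does not move the others.

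MicroRNAs are short RNAs that guide Argonaute proteins to complementary sites in messenger RNAs, mainly through the seed, the stretch of bases near their 5′ end. In the neonatal period the mouse liver stops making blood cells and slows its growth, and around weaning its diet passes from milk to chow. Several imprinted loci, where only the copy from 1 parent is active, are expressed in fetal and neonatal liver and are silenced in the adult. A large group of imprinted mouse microRNAs lies between Dlk1 and Dio3 on distal chromosome 12 and is transcribed from the maternal copy.

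The microRNAs that carried the difference between the stages are shown first, with the seed (bases 2 to 8) in capitals. The sequences are RefSeq mature sequences (GRCm38.p6), read 5′ to 3′. A row of the table is a hairpin, so its 2 arms cannot be told apart, and where both arms have an entry the one printed is only an example. RefSeq entries were found for 366 of 478 microRNA rows and for 42 of the 42 rows that passed the test below.
miR-376a-3p: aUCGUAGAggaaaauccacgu
miR-376b-3p: aUCAUAGAggaacauccacuu
miR-127-3p: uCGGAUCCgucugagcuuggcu
miR-665-3p: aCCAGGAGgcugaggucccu
miR-433-3p: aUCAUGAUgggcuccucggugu
miR-379-5p: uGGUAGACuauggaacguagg
miR-1193-5p: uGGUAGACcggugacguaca
miR-379-3p: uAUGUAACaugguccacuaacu
miR-411-3p: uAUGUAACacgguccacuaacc
miR-298-5p: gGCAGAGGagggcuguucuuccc
miR-503-5p: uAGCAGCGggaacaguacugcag
miR-130b-3p: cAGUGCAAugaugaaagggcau
miR-29a-3p: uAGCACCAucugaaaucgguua
miR-29c-3p: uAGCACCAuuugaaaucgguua
The first 9 sequences are from Dlk1-Dio3 hairpins that fell, and the last 2 are from the hairpins that rose. miR-29a and miR-29c share the seed AGCACCA, which miR-29b-3p also has. Within the Dlk1-Dio3 group the seed GGUAGAC was shared by miR-379-5p and miR-1193-5p, and the seed AUGUAAC by miR-379-3p and miR-411-3p. miR-376b-5p and miR-376c-5p shared UGGAUAU. The seed of miR-130b-3p, AGUGCAA, is also that of miR-130a-3p, whose hairpin differed by -0.63 on the log2 scale and did not pass the test (adjusted p = 0.586, limma).

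The 8 libraries hold 201958 to 929425 microRNA reads, of which 25032 to 300737 are not miR-122. P21 and P28 are the shallowest, with 25032 and 34265 such reads, so 1 read is worth 39.9 RPM at P21 and 29.2 RPM at P28, against 3.33 to 16.3 RPM in the other 6 libraries. A microRNA without a read at P21 or P28 may have had a level of up to 120 or 87.6 RPM, the worth of 3 reads, and these limits cover counting error only. The P28 library stands apart from the other 7 libraries. Its listed RPM add up to 661610, less than those of any of the other 7. It held 131882 RPM of miR-706, 47248 RPM of miR-193, 37530 RPM of miR-148a and 36509 RPM of miR-1198, and no other library of the 8 passed 1594, 1146, 1844 and 232.5 RPM for these. Of the 2 libraries of P270, replicate A shares this pattern, with 179894 RPM of miR-706 and 48845 RPM of miR-1198. The counts and the calls are therefore also given without P28. miR-122, the hepatocyte marker, was at 43.0% to 89.5% of microRNA reads in all 8 livers. Its share was 78.4% ± 9.76 (SD, n = 4) at P12 to P28 and 66.0% ± 16.8 (SD, n = 4) in the neonatal livers. The groups overlapped. Their difference of 12.4 percentage points was within the spread between livers (exact two-sided permutation test, p = 0.2, where 0.0286 is the smallest possible). Without P28 the difference was 10.9 points (exact p = 0.371). The spread within each group holds differences between stages as well as between mice, here and in the SDs, SEs and p-values below.

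**Figure D1:**
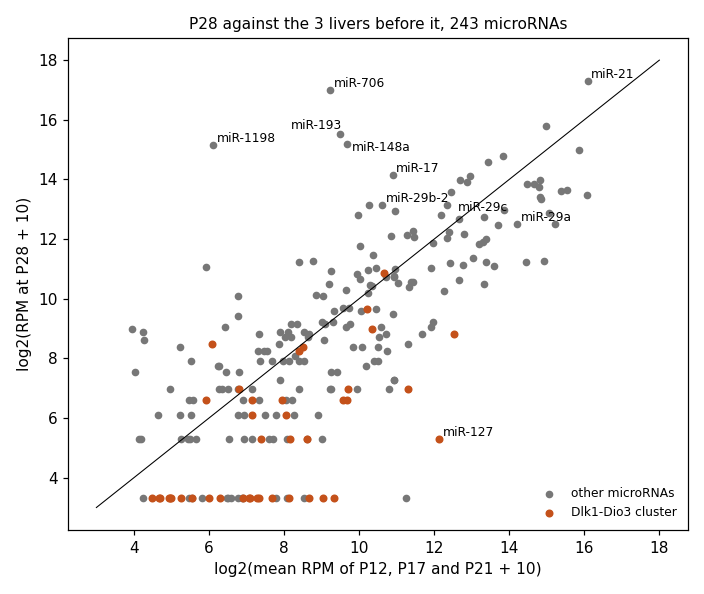
Level of each of the 243 tested microRNAs at P28 (y axis) against its mean level at P12, P17 and P21 (x axis), both as log2(RPM + 10), with equal levels on the diagonal. miR-706, miR-193, miR-148a and miR-1198 lie far above the diagonal, and most Dlk1-Dio3 microRNAs (orange) lie below it or on the floor of the axis, where P28 had no read.

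Of the microRNAs that differed between the neonatal and the later livers, nearly all were lower in the later ones, and most of these came from 1 imprinted locus. Of the 243 microRNAs that averaged at least 50 RPM over the 8 livers, 42 (17.3%) passed an adjusted p of 0.05 in limma on log2(RPM + 10), of which 40 (16.5%) were lower and 2 (0.823%) were higher at P12 to P28. The lower ones were 33 microRNAs of the Dlk1-Dio3 cluster, both microRNAs of the Gnas locus, miR-503 and miR-450b of an X-linked cluster, the neighbours miR-130b and miR-301b, and miR-223. The 2 that rose were miR-29a and miR-29c. The median difference over the 243 microRNAs was -0.67 on the log2 scale, and it depends on the scaling, being -1.11 when scaled to all microRNA reads, miR-122 included, and 0.19 after centring the libraries on their median microRNA. With that centring, 16 microRNAs were lower and 3 were higher. Without P28, 31 microRNAs were lower and 2 were higher, and 31 of these 33 were among the 42. The 11 calls lost without P28 were those of miR-296, miR-301b, miR-337, miR-377, miR-381, miR-410, miR-431, miR-434, miR-541, miR-543 and miR-668, and miR-142 and miR-183 were gained. With 1 liver left out at a time the number of calls ranged from 14 to 50, and it was 14 or 15 without either P1 liver, 24 without P21 and 50 without P12. With the 2 P8 livers alone as the neonatal group no microRNA passed in limma and 33 had an unadjusted p under 0.05, and all 42 kept their direction.

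**Figure D2:**
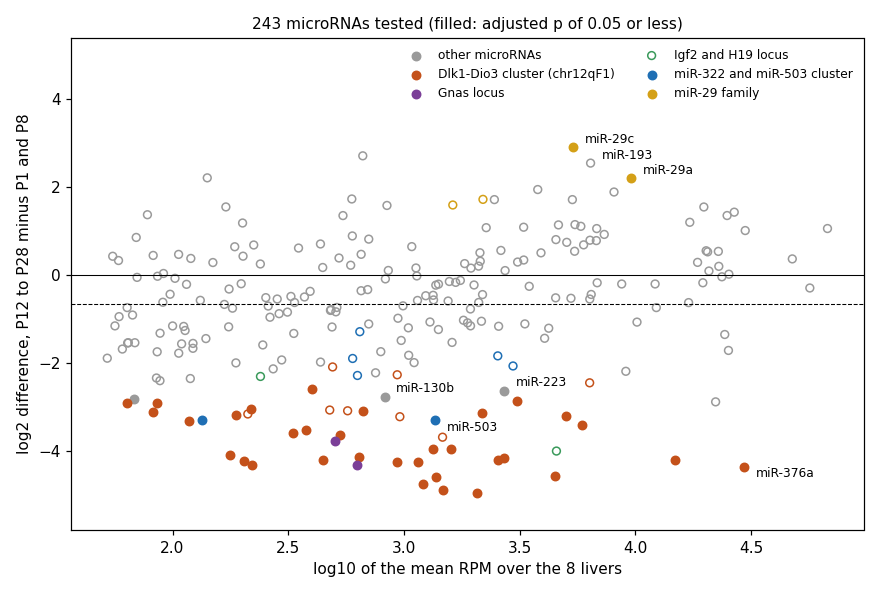
Difference between P12 to P28 and the neonatal livers (y axis, log2 scale) against the mean level over the 8 livers (x axis, log10 of RPM), 1 point per tested microRNA, filled where the adjusted p was 0.05 or less. The dashed line is the median of the 243. Of the 42 filled points, 33 are Dlk1-Dio3 microRNAs (orange) at -2.60 to -4.97, and the 2 filled points above 0 are miR-29c and miR-29a.

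The Dlk1-Dio3 list holds 52 microRNAs, of which 50 had reads in these livers and 41 passed the filter on low levels. Of the 41, 33 fell and none rose, beside 16.5% lower and 0.823% higher over all 243. The other 8 (miR-136, miR-299, miR-329, miR-494, miR-495, miR-382, miR-134 and miR-496) had differences of the same sign without passing the test. The median difference of the 41 was -3.59, with a range from -4.97 to -2.09, beside -0.67 over all 243. In 31 of the 41, all 4 later livers were below all 4 neonatal livers, which held for 21.4% of all tested microRNAs. Since 9 of the 41 had a mean under 50 RPM at P12 to P28, they passed the filter through the neonatal livers, and counts over the 41 are a description of the list. With no filter, 50 of 50 had a negative difference, with a median of -3.21 beside -0.53 over the 392 microRNAs then tested. Of these 50, 29 were called, beside 38 called lower among the 392. Without P28, 24 of the 41 passed the test, beside 31 lower among all 243, and after median-centring 14 did, beside 16. All 41 differences were negative in both, with medians of -3.12 and -2.74 beside -0.60 and 0.19 over all 243. With P8 alone as the neonatal group, none of the 41 passed in limma, 27 had an unadjusted p under 0.05 and the median was -3.08.

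miR-376a was the most abundant of the group. Its level was 29820 and 76448 RPM at P1, 42160 and 69846 RPM at P8, and then 12263, 3738, 1838 and 438 RPM from P12 to P28. Each later liver was below the one before it and below all neonatal livers. The means were 54568 ± 22200 RPM (SD, n = 4) and 4569 ± 5305 RPM (SD, n = 4), and the fitted difference was -4.36 ± 0.86 (SE, adjusted p = 0.00624, limma), or -3.53 without P28 (adjusted p = 0.0105). Its mature 3p arm lies at chr12:109723824-109723844 on the plus strand (GRCm38.p6).

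miR-127, which lies antisense to the retrotransposon-derived gene Rtl1 and directs cleavage of its transcript, was second in level. It was at 16451 and 33412 RPM at P1 and at 14082 and 40905 RPM at P8, then at 7369, 3257, 2836 and 29.4 RPM from P12 to P28. The P28 value is 1 read, while P21 stood at nearly the level of P17, so most of the last step is in the library that stands apart. The difference was -4.21 ± 1.27 (SE, adjusted p = 0.0339, limma), and -2.54 without P28 (adjusted p = 0.017). Its call held in 9 of 20 alternatives, and those that lost it include leaving out either P1 liver, P8 replicate B or P21 and centring on the median, with adjusted p of up to 0.348 (limma).

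Other microRNAs at or near Rtl1 fell as well. miR-433 was at 2431 and 3449 RPM at P1, 871 and 2481 RPM at P8, then 233, 99.2 and 119.5 RPM at P12, P17 and P21, with no read at P28. miR-665, encoded close by, was at 2896 and 4758 RPM at P1, 3049 and 4962 RPM at P8, then 650, 54.5, 119.5 and 29.4 RPM. For both, the lowest neonatal liver was above the highest later liver. miR-665 differed by -4.97 ± 0.86 (SE, adjusted p = 0.00624, limma) and miR-433 by -4.76 ± 0.96 (SE, adjusted p = 0.00624). Between P12 and P17 miR-665 passed from 650 to 54.5 RPM, a larger step than at any later stage. miR-136 of the same group was at 29220 RPM in P1 replicate A and at 3460 to 5684 RPM in the other 3 neonatal livers, against 400 to 2766 RPM later, and did not pass the test (-2.45 ± 0.82, adjusted p = 0.0546, limma).

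**Figure D3:**
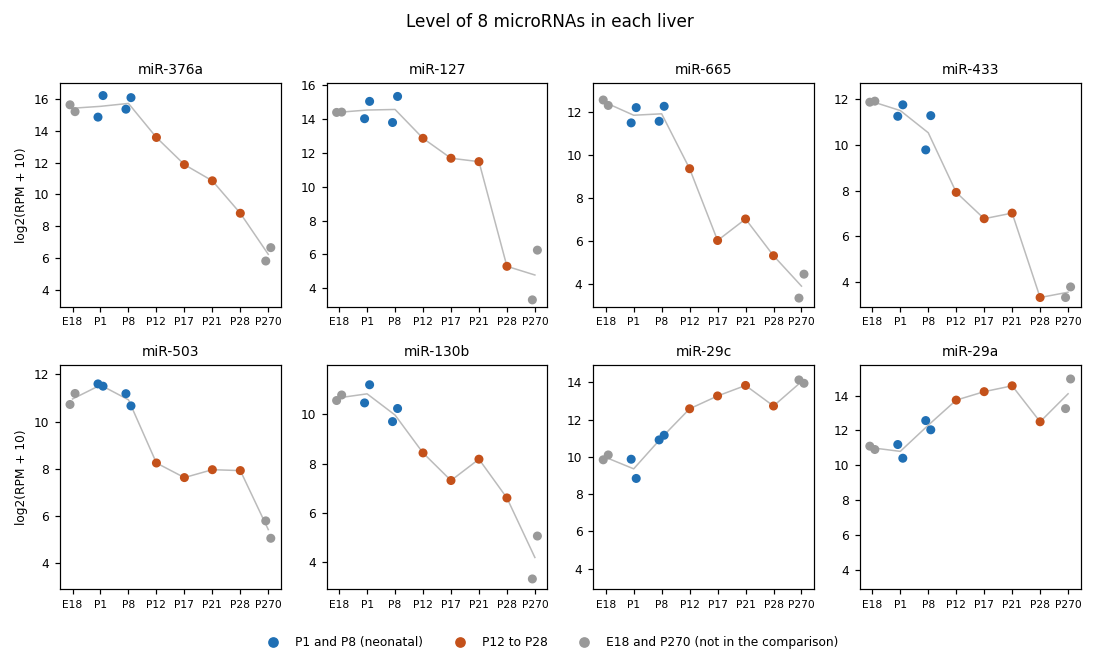
Level of 8 microRNAs in each liver as log2(RPM + 10) (y axis) by stage (x axis), 1 point per liver, with a line through the stage means. miR-376a, miR-127, miR-665, miR-433, miR-503 and miR-130b are below all neonatal livers at P12 to P28, miR-29c is above them, and miR-29a at P28 is within the neonatal range.

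The remaining large falls came from several places in the cluster. miR-341 was at 1958 to 3694 RPM in the neonatal livers and at 633, 94.3, 80.3 and 0 RPM from P12 to P28. miR-300 was at 1844 to 2999 RPM and then at 936, 208, 40.2 and 0 RPM. miR-376b was at 3787 to 12024 RPM and then at 2116, 218, 160 and 117 RPM. The log2 differences of these 3 were -4.90, -4.59 and -4.57, with adjusted p of 0.00773, 0.0166 and 0.00624 (limma). In each, the later livers went down in order of age, as they did in 11 of the 41 Dlk1-Dio3 microRNAs beside 10.3% of all tested. A rise at each step from P12 to P28 was seen in none of the 41 and in 2.88% of all tested. miR-380, miR-323, miR-666 and miR-487b were lower in level, at 180 to 3290 RPM in the neonatal livers. Their differences were -4.26, -4.33, -4.24 and -4.21, with adjusted p of 0.0116, 0.00624, 0.00624 and 0.0177 (limma). The later means of miR-323 and miR-666 were under 50 RPM, so these 2 were tested through their neonatal levels. None of the 4 had a read at P21, and miR-323 had 20.5 and 44.7 RPM at P12 and P17. Of the 11 Dlk1-Dio3 calls described by name up to here, none was lost in the comparison without P28 and all 11 were lost with P8 alone as the neonatal group. Those of miR-127, miR-300, miR-380 and miR-487b were lost without P1 replicate A, and those of miR-127, miR-300 and miR-487b without P1 replicate B. A pseudocount of 1 lost those of miR-127, miR-300, miR-341, miR-380 and miR-487b. A slope on log2 of the day without P28, an alternative chosen after seeing the data, lost those of miR-665, miR-341, miR-300, miR-376a, miR-487b and miR-127.

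The hairpins of 48 of the 52 microRNAs were placed on chromosome 12 (GRCm38.p6, plus strand), and their largest gap, of 90723 bases, parts them into 15 hairpins from miR-770 to miR-370 (chr12:109563692-109618336) and 33 from miR-379 to miR-410 (chr12:109709060-109743795). In the 15, 11 were tested, 10 fell and the median difference was -3.64. In the 33, 27 were tested, 22 fell and the median was -3.59, beside 16.5% lower and a median of -0.67 over all 243. The summed level of the 15 was 32793 to 68841 RPM in the neonatal livers and 15351, 6827, 3716 and 2773 RPM from P12 to P28. The 33 summed to 87835 to 138866 RPM and then to 33449, 9389, 4317 and 2627 RPM. The 2 stretches thus held the same order of stages, and neither sum overlapped between the groups.

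**Figure D4:**
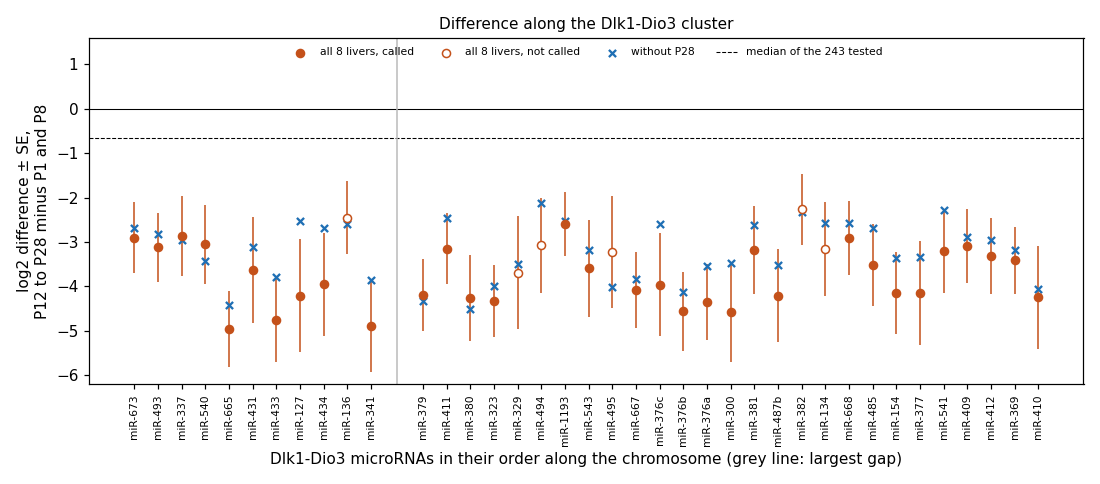
Difference between P12 to P28 and the neonatal livers (y axis, log2 scale, bars are SE) for the tested Dlk1-Dio3 microRNAs with a known position, in their order along chromosome 12 (x axis). All points lie below the median of the 243 tested microRNAs (dashed line), also without P28 (crosses), on both sides of the largest gap.

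Per liver, the median of the 41 against their own neonatal mean was -1.48 on the log2 scale for the P12 liver, -3.06 for P17, -4.82 for P21 and -4.89 for P28. At P21 19 of the 41 and at P28 20 had no read, and with these set to the worth of 3 reads the medians were -3.12 and -3.14, close to that of P17. Over all 243 the medians were -0.50, -0.40, -1.23 and -0.86. At P12, 32 of the 41 were below all 4 neonatal livers, beside 98 (40.3%) of the 243 tested, and at P17 all 41 were, beside 96 (39.5%) of the 243. Between the P1 and P8 livers the shift was smaller, with medians of 0.67 and 0.21 in the P1 livers and of -0.32 and -0.65 in the P8 livers. In the livers just outside the comparison the medians were 1.04 and 0.90 at E18, and -6.42 and -6.58 at P270, where 36 and 26 of the 41 had no read and the medians with these at the worth of 3 reads were -2.93 and -5.59. At P270 the 52 microRNAs together had 457 and 359 RPM, below the 5546 RPM of P28.

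The Gnas locus holds 2 tested microRNAs, miR-296 and miR-298, and both passed the test as lower, beside 16.5% of all 243 tested. The call of miR-296 held in few of the alternatives. miR-298 was at 989 and 2045 RPM at P1, 306 and 1453 RPM at P8, then 90.0, 109.1, 40.2 and 0 RPM, a difference of -4.32 ± 0.93 (SE, adjusted p = 0.00803, limma). Its later livers were all under the lowest neonatal one, and its call held without P28 (adjusted p = 0.0154). miR-296 was at 476 to 1653 RPM in the neonatal livers and at 421, 208, 0 and 0 RPM later (-3.78 ± 1.18, adjusted p = 0.0389, limma), and without P28 its adjusted p was 0.104. The call of miR-296 held in 7 of 20 alternatives and was also lost without any 1 of the 4 neonatal livers or P21, while that of miR-298 held in 18. The Igf2 and H19 locus carries miR-483, in an intron of the growth factor gene Igf2, and miR-675, processed from the H19 transcript. miR-483 was at 3577 and 9079 RPM at P1, 3405 and 13123 RPM at P8, then 5408, 1611, 240 and 0 RPM. Its P12 liver was within the neonatal range and only P17, P21 and P28 were below it, and neither miR-483 (-4.01 ± 1.46, adjusted p = 0.0728, limma) nor miR-675 (-2.31 ± 0.94, adjusted p = 0.108) passed the test. miR-483 passed when scaled to all microRNA reads or to the authors' total, with a pseudocount of 50 and without P12, and miR-675 passed with the authors' total. Set against its own neonatal mean, the median of this locus at P12 was -0.48 and that of the Dlk1-Dio3 group -1.48, a difference that was not tested.

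**Figure D5:**
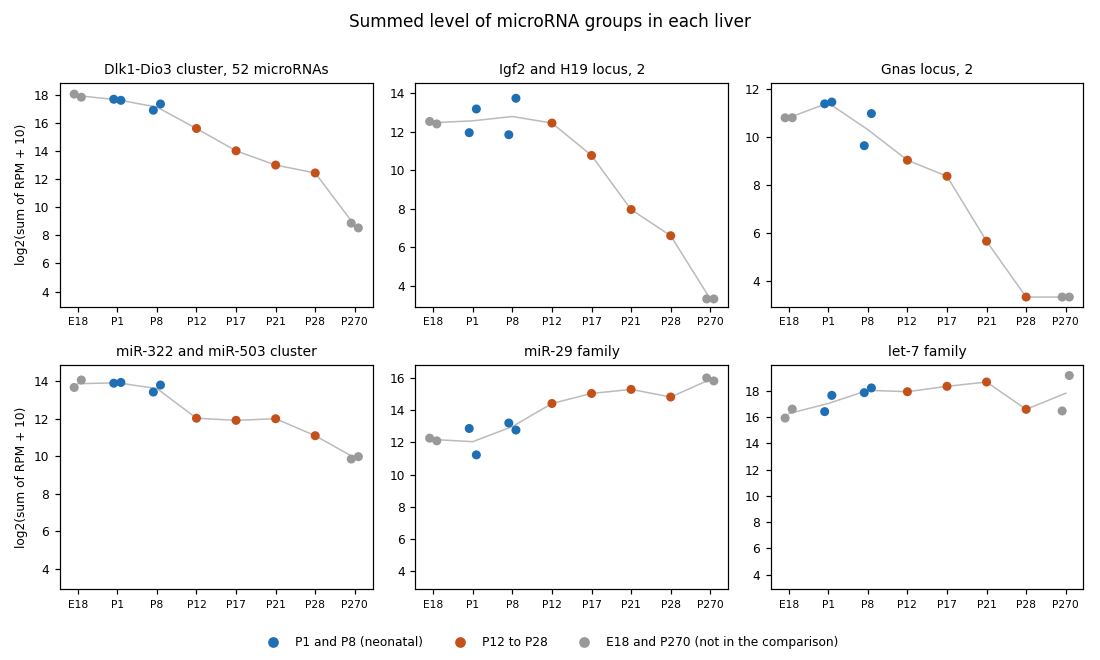
Summed level of 6 groups of microRNAs in each liver as log2(sum of RPM + 10) (y axis) by stage (x axis), 1 point per liver, with a line through the stage means. The Dlk1-Dio3 sum passes from 49858 RPM at P12 to 5546 RPM at P28, below all 4 neonatal livers, the miR-29 sum is above all 4 at each later stage, and the let-7 sum overlaps.

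Outside the Dlk1-Dio3, Igf2 and Gnas loci, 5 of 198 tested microRNAs fell and 2 rose. The miR-322 and miR-503 cluster on the X chromosome is known for restraining the cell cycle, and 2 of its 7 members fell, miR-503 and miR-450b, beside 16.5% lower over all 243. miR-503 was at 3091 and 2890 RPM at P1, 2318 and 1616 RPM at P8, then at 294, 188, 240 and 234 RPM. Its 4 later livers were all below the lowest neonatal liver and lay close together, without an order by age. The difference was -3.29 ± 0.63 (SE, adjusted p = 0.00624, limma) and the same without P28, at -3.29 (adjusted p = 0.0105). miR-450b was at 210 to 275 RPM and then at 41.0, 69.3, 0 and 0 RPM (-3.31 ± 0.86, adjusted p = 0.0193, limma). Its later mean was under 50 RPM, so it was tested through its neonatal level, and its call was lost without either P1 liver. The median of the 7 was -2.07. miR-322 and miR-351, the 2 most abundant, differed by -1.84 and -2.07 and did not pass (adjusted p = 0.0674 and 0.0741, limma). miR-322 was at 3285 to 4795 RPM and then at 1507, 1413, 1478 and 408 RPM, with all later livers below the neonatal ones.

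miR-130b and miR-301b lie next to each other on chromosome 16. miR-130b was at 1395 and 2331 RPM at P1, 821 and 1191 RPM at P8, then 335, 149, 279 and 87.4 RPM (-2.76 ± 0.71, adjusted p = 0.0193, limma). miR-301b was at 32.7 to 309 RPM and then at 12.1, 14.8, 0 and 0 RPM (-2.81 ± 0.84, adjusted p = 0.0339), values of few reads, and without P28 its adjusted p was 0.0515. Its later mean was under 50 RPM too, and over all tested microRNAs 26 had such a later mean, 11 of them among the 42 calls. The calls of miR-130b and miR-301b were lost without either P1 liver, and that of miR-301b also without P8 replicate A, P17 or P21. miR-223, a microRNA of granulocytes and their precursors, was at 9817 and 4322 RPM at P1, 2963 and 1894 RPM at P8, then 976, 570, 360 and 759 RPM (-2.63 ± 0.70, adjusted p = 0.0225, limma). Its call held in 14 of 20 alternatives and was lost without any 1 of P1 replicate A, P1 replicate B, P17 or P21 and after median-centring.

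The miR-29 family, known for targeting collagens and other matrix genes, was the one list with rises. miR-29c was at 930 and 450 RPM at P1 and 1919 and 2285 RPM at P8, then at 6131, 9891, 14621 and 6799 RPM. All 4 later livers were above all 4 neonatal livers, which held for 3 (1.23%) of the tested microRNAs. Its mean passed from 1396 ± 852 to 9361 ± 3870 RPM (SD, n = 4 each), a 7.50-fold rise on the log2(RPM + 10) scale (2.91 ± 0.69, adjusted p = 0.0142, limma). miR-29a was at 2334 and 1350 RPM at P1, 6062 and 4195 RPM at P8, then 13676, 19151, 24169 and 5779 RPM. Its P12, P17 and P21 livers were above all neonatal livers and P28 fell between the 2 P8 livers (2.20 ± 0.69, adjusted p = 0.0389, limma). Without P28 both rises passed, at 3.03 for miR-29c (adjusted p = 0.0154) and 2.62 for miR-29a (adjusted p = 0.017). Both calls were lost when scaled to all microRNA reads, miR-122 included, where the differences kept their sign. The call of miR-29a held in 9 of 20 alternatives and was lost without any 1 of P1 replicate A, P1 replicate B, P12, P17 or P21. The call of miR-29c held in 16 of 20 and was lost without P1 replicate B, at 2.46 (adjusted p = 0.0592, limma). The P8 livers were above the P1 livers for both. The printed 3p arms of miR-29a and miR-29c differ by 1 base, and the authors' alignment allowed 2 mismatches. Their rows may therefore share reads, and the 2 rises may not be separate results. The 2 miR-29b hairpins, which give the same mature sequence and may share reads, differed by 1.59 and 1.72 and did not pass (adjusted p = 0.275 and 0.25, limma). At P28 they were at 7121 and 9106 RPM, above all neonatal livers, and at P21 at 559 and 600 RPM, within the neonatal range.

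The other 2 microRNAs with no overlap upwards, miR-365-1 and miR-365-2 of the hepatocyte list, are hairpins of the same microRNA and may share reads. They were 1.76 and 1.85 times as high on the log2(RPM + 10) scale and did not pass (adjusted p = 0.421 and 0.381, limma). Other families abundant in liver also gave no call. Of the 11 let-7 hairpins, which in many tissues accumulate as cells mature, none passed in limma, and their median was 0.02, or 0.36 without P28 and 0.87 after median-centring. In the slope on log2 of the day without P28, let-7b, let-7c-1 and let-7c-2 passed as higher. let-7a-2 was at 24937 and 69469 RPM at P1, 66344 and 72588 RPM at P8, then 57267, 80898, 70388 and 11294 RPM, so that P1 replicate A and P28 were both low. let-7c-2 and let-7c-1, which share their mature sequence, were highest at P21, at 90002 and 82014 RPM, against 3023 to 31960 RPM in the neonatal livers. The 6 miR-30 hairpins had a median of 0.86, or 1.71 after median-centring, and differences from 0.54 to 1.15. Of these, miR-30a passed in the slope on log2 of the day without P28. The 6 hairpins of miR-99, miR-100 and miR-125 had a median of 0.26, or 1.11 after median-centring. The 13 tested hairpins of miR-17~92 and its copies, which promote proliferation, had a median of -0.95, or -0.09 after median-centring. Of these, miR-18a and miR-106a passed in the slope without P28. The 6 hairpins of miR-15, miR-16 and miR-195 had a median of -0.05, or 0.80 after median-centring. miR-21, the most abundant of the 243, was at 20434 to 67002 RPM in the neonatal livers and at 91923, 91141, 25686 and 162262 RPM later (1.06 ± 0.66, adjusted p = 0.316, limma). miR-126 was at 26231 to 64229 RPM and then at 32628 to 64387 RPM, with overlap. miR-335 was at 15386 to 39224 RPM and then at 31344, 8294, 27604 and 2393 RPM (-1.35 ± 0.79, adjusted p = 0.271, limma).

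Markers of other cells were read as lists. The hepatocyte list had 13 tested members, none of which passed, with a median of 0.82, or 0.33 without P28. Among its members miR-802 passed in 3 alternatives, with P1 alone as the neonatal group and in both slopes on log2 of the day. miR-192 was at 5492 to 32144 RPM and then at 22696, 52119, 22771 and 56558 RPM. The summed level of the hepatocyte list was 34353 to 74284 RPM in the neonatal livers and 46981 to 199881 RPM later, with the highest value at P28, where miR-193 and miR-148a are counted in it. The 3 erythroid microRNAs had a median of -1.72, or -0.86 after median-centring, and did not pass. In the alternatives miR-144 passed when scaled to all microRNA reads or to the authors' total, without P8 replicate B, with P1 alone as the neonatal group and in both slopes on log2 of the day, and miR-451 passed in both slopes. Their sum was 125881 and 182533 RPM at P1, 26787 and 17351 RPM at P8, and 5513 to 23930 RPM later, so the 2 P1 livers were above the other 6. miR-144 was at 31600 and 128346 RPM at P1 and at 780 to 5224 RPM in the 6 livers from P8 on (-2.89 ± 1.06, adjusted p = 0.0741, limma). miR-451 was at 92510 and 39288 RPM at P1 and at 2900 to 19861 RPM from P8 on (-1.72 ± 0.80, adjusted p = 0.17). Of 7 leukocyte microRNAs, 1 fell, miR-223, a share near the 16.5% lower over all 243. The sum of the list was 9729 to 43054 RPM and then 2558 to 9894 RPM. miR-142 was at 30979 and 11478 RPM at P1, 10288 and 6121 RPM at P8, then 2639, 2102, 1159 and 7908 RPM. Its adjusted p was 0.0546 in all 8 livers and 0.017 without P28 (limma). It also passed when scaled to all microRNA reads or to the authors' total, with a pseudocount of 50, without P8 replicate B and in the slope without P28. The mean erythroid sum passed from 88138 ± 79812 to 14770 ± 7520 RPM (SD, n = 4 each) and the mean leukocyte sum from 21330 ± 14812 to 5876 ± 3205 RPM, beside the fall of the Dlk1-Dio3 microRNAs, and their part in that fall was not tested. Fewer cells of a type and less RNA per cell cannot be told apart in whole liver. In the stellate cell and fibroblast list, the epithelial list and the single endothelial microRNA, none of 6, 7 and 1 passed, with medians of -0.80, 0.25 and 0.37. Without P28 the epithelial median was -0.31, and after median-centring the stellate cell and fibroblast median was 0.06. miR-145 was at 16662 RPM at P12 and at 627 to 2566 RPM in the other 7 livers. Muscle, pancreas and neural microRNAs had 2, 1 and 2 tested members, at summed levels of at most 751 RPM in every liver, and none passed. Of the neural list, miR-137 passed with P1 alone as the neonatal group and in both slopes on log2 of the day. The 6 miR-181 hairpins and the 14 tested hairpins of miR-297, miR-466, miR-467 and miR-669 had medians of -1.12 and -1.02 with no call. After median-centring these medians were -0.27 and -0.16, and without P28 the miR-181 median was -0.45. In the slope on log2 of the day without P28, miR-669a-1 passed.

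Within the later stages, P21 and P28, at or after the usual time of weaning, were compared with P12 and P17, before it. In a fit with 1 mean each for P1, P8, P12 with P17, and P21 with P28, 4 microRNAs (1.65%) were lower at P21 and P28 and 0 higher, while 36 had an unadjusted p under 0.05. The 4 were miR-205, miR-296, miR-377 and miR-487b. miR-296, miR-377 and miR-487b had no read in either later library, which together hold few reads, and pooled over the 2 libraries of each side they were at least 6.42-fold, 5.89-fold and 3.90-fold lower against the worth of 3 reads (50.6 RPM over P21 and P28). miR-205, a microRNA of squamous epithelium, was at 63.5 to 123 RPM in the neonatal livers, 1074 RPM at P12 and 446 RPM at P17, then at 0 and 29.4 RPM, the last being 1 read. Its level at P12 and P17 was 46.9 times that at P21 and P28, with a 95% exact interval from 8.36 to 1857 on the reads pooled over the 2 mice of each side, which covers counting error only and not the difference between mice. The adjusted p was 0.0344 for miR-205, miR-296 and miR-377 and 0.0351 for miR-487b (limma). The 41 Dlk1-Dio3 microRNAs had a median of -2.17 beside -0.79 over all tested, or -1.81 with the 13 that had no read at P21 and P28 set to their bound (or to no change where P12 and P17 were under it too), and 2 of them, miR-377 and miR-487b, passed. The calls of this later step were lost when any of P1 replicate A, P1 replicate B, P8 replicate A, P8 replicate B, P12 or P17 was left out, and without P28 13 microRNAs passed as lower and 1 as higher, and without P21 25 as lower and 11 as higher. In each fit without 1 of P12, P17, P21 or P28, 1 side is a lone liver, which is assumed to vary like the other groups.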

How the data were processed

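Small RNA of 17 to 28 or 18 to 36 nucleotides (the paper and the labels differ) was cloned with barcoded adaptors and sequenced on a MiSeq. The authors aligned the reads to mouse microRNA hairpins with Bowtie 0.12.7, allowing 2 mismatches, and deposited RPM per hairpin with 1 added to every value. How reads that match several hairpins were divided is not given in the sources used here. Here the added 1 was removed and each library rescaled to the reads other than miR-122. From the steps of the low RPM, which were whole multiples within 0.05 RPM for most values, the worth of 1 read was read, and used for depth, for floors of 3 reads and for the counting interval of miR-205. RPM are not counts, so limma 3.58.1 (R 4.3.3, lmFit and eBayes, trend on) was fitted to log2(RPM + 10). MicroRNAs averaging at least 50 RPM were tested, with Benjamini-Hochberg adjustment over the 243 tested and a threshold of 0.05. Fold changes are on this scale, where the added 10 RPM narrows the changes of low microRNAs. A microRNA without a read is taken as 0 RPM, so its fall may be overstated in shallow libraries such as P21 and P28. With a pseudocount of 50 the median of the 41 tested Dlk1-Dio3 microRNAs was -2.71, beside -0.54 over all tested. The RNA-seq table was not used here.

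The microRNAs named are the largest falls and rises (up to 12 each way) past the threshold whose groups do not overlap, up to 5 each way of the later step, the 10 most abundant, and the 3 most abundant of each list. The 8 not called in the Dlk1-Dio3 list, the other microRNAs past the threshold that are described, miR-365-1, miR-365-2, miR-706, miR-148a, miR-1198 and the miR-29b hairpins were named after their values were seen. So were the microRNAs named only because they passed in an alternative. The members and lists were chosen with earlier results of these data known. Each liver is 1 mouse, and nothing states whether the mice share litters. On simulated data with 50 changed microRNAs of 243, the fit called 0% of log2 changes of 1, 8.67% of 2 and 83.3% of 4, with at most 2 false calls on average.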

Additional observations from a re-analysis of the deposited data

Results flagged for a closer look

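In groups of 4 livers, a liver was marked by its gap to the nearest other, as a share of the range of the group. The limit was Dixon's 95% critical value, which chance passes in about 5% of groups of like replicates. Of 194 groups 18 were marked, and since each group joins different stages, the 5% need not hold for them. miR-706 was put into the screen after its level at P28 had been seen. P28 was marked high for miR-706 (0.991 of the range, 131882 RPM), miR-193 (0.991, 47248 RPM) and miR-17 (0.889, 18153 RPM), and low for miR-322 (0.914, 408 RPM), for the miR-322 and miR-503 cluster sum (0.84, 2189 RPM) and for the total of its listed RPM (1, 661610 RPM). P12 was marked high for 3 Dlk1-Dio3 microRNAs, miR-665 (0.855, 650 RPM), miR-341 (0.851, 633 RPM) and miR-376b (0.949, 2116 RPM), and for miR-145 (0.963, 16662 RPM). It was also marked for miR-499 (1, 4.18 RPM) and miR-216b (1, 8.35 RPM), which are 1 and 2 reads beside none. P21 was marked high for miR-137 (0.872, 360 RPM). P1 replicate A was marked low for let-7a-2 (0.869, 24937 RPM) and let-7f-2 (0.894, 11255 RPM), and high for miR-136 (0.914, 29220 RPM), miR-193 (0.872, 1146 RPM) and miR-199b (0.887, 1535 RPM). The reasons were not tested.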

How the results depend on the processing

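The 42 calls became 19 after median-centring, 15 with a pseudocount of 1, 24 with P1 alone and 0 with P8 alone as the neonatal group, and ranged from 14 to 50 when 1 liver was left out; they were 15 without P1 replicate A, 14 without P1 replicate B and 24 without P21. The 33 Dlk1-Dio3 calls became 14, 11, 17 and 0 under those same settings and 12 to 40 with 1 liver left out (12 without either P1 liver, 18 without P21, 40 without P12). All 42 kept their direction wherever they were tested. With no filter 39 of 392 and with a filter of 200 RPM 30 of 188 passed. A slope on log2 of the day gave 41 calls. Of the alternatives chosen after seeing the data, the slope without P28 gave 35 calls, of which 26 were lower, 16 of these Dlk1-Dio3, and 9 were higher, and 20 of the 35 were among the 42, and leaving miR-706 and miR-193 out of the totals gave 41. The 4 calls of the later step became 2 when scaled to all reads, 0 after centring, 9 and 1 with pseudocounts of 1 and 50, and 0 with no filter, where 23 and 38 had an unadjusted p under 0.05 after centring and with no filter. With 1 liver left out they ranged from 0 to 36. The difference in miR-122 share, 12.4 points, was 5.41 of the authors' total (exact p = 0.629) and 4.76 to 18.1 with 1 liver left out. The cause of these changes was not tested. No paired analysis was possible because replicate letters are given only within P1 and P8, which lie on 1 side of the comparison. A count model was planned but not run, since a check for whole reads in the rounded values failed for several columns. In the 8 libraries compared, 97.3% to 99.1% of low values were whole multiples of 1 read. The reads recovered were used here for depth, floors and intervals.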
